A study of Mus musculus with 6 samples.

Results

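Extracellular ATP and adenosine form a signalling system with which astrocytes and neurons influence each other, and 10 of its genes were followed here in ribosome-bound mRNA of astrocytes from the diencephalon and the cortical grey matter of adult mice. The genes were chosen by symbol and encode 3 adenosine receptors (Adora1, Adora2a, Adora2b), 3 ATP or ADP receptors (P2ry1, P2rx4, P2rx7), 2 enzymes that break down extracellular nucleotides (Entpd2, Nt5e) and 2 enzymes that clear adenosine (Adk, Ada). All 10 were among the 23955 genes in the files, and 7 had enough counts to be tested. ATP released by cells acts on ion channels of the P2X family and on G protein-coupled P2Y receptors. Enzymes on the cell surface cut it stepwise to adenosine, which acts on receptors of its own. In the brain, adenosine is taken up through nucleoside transporters and is removed largely by adenosine kinase, an enzyme found mainly in astrocytes of the adult brain.

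Diencephalon, with the area bordering the third ventricle left out, gave 3 libraries. Another 3 came from grey matter of the cortex, freed of meninges and white matter. Each library pooled 3 mice of strain C57BL/6 at an age of 3 months, and both sexes were used. Both groups carried the same alleles: Slc1a3 +/- with the tamoxifen-dependent Cre recombinase (line Slc1a3tm1(cre/ERT2)Mgoe), Rpl22HA fl/fl, in which recombination adds a haemagglutinin tag to the ribosomal protein Rpl22 (line B6N.129-Rpl22 tm1.1Psam/J), and a transgenic GFP reporter driven by the CAG promoter. Tamoxifen was given to both groups at 9 weeks of age. Cells are tagged where the Slc1a3 locus is active, so the mRNA comes from cells that use this locus and from any RNA carried along in the purification; unpurified RNA was not analysed here. Libraries held 1733145 to 2334237 expected counts, and values are given as counts scaled to library size (CPM). A count of 0 allows a level of up to 3 counts, which was 1.31 to 1.86 CPM depending on the library. Labels name separate pools of mice as replicates, so that p-values measure the spread between pools.

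Astrocyte markers were abundant in every library, at a summed 17850, 15860 and 15200 CPM in the diencephalic libraries and 25360 to 31890 CPM in the cortical ones. Markers of other cells were present too, and none of the listed markers was at 0 in all 6 libraries. Relative to cortical grey matter, the diencephalic sums were 17.8-fold higher for subcortical neuron, 14.1-fold for choroid plexus, 2.85-fold for ependymal and 2.22-fold for oligodendrocyte markers. They were 17.1-fold lower for cortical excitatory neuron, 3.52-fold for meningeal, 2.43-fold for pericyte, 1.78-fold for astrocyte, 1.67-fold for endothelial, 1.63-fold for general neuron and 1.51-fold for oligodendrocyte progenitor markers. In each of these lists all diencephalic libraries lay on one side of all cortical ones (exact two-sided permutation p = 0.1, the smallest that 3 against 3 libraries can give). Single astrocyte markers did not all move alike: of 10, 8 had lower means in diencephalon and 2, Gja1 and Fgfr3, had higher ones. The endothelial difference rested on Cdh5 and was a log2 difference of 0.03 without it, and those of pericyte markers without Vtn, general neuron markers without Snap25 and ependymal markers without Foxj1 shrank to log2 differences of -0.29, -0.25 and 0.69. The choroid plexus log2 difference of 3.82 was 4.66 without cortical grey matter replicate 2, 3.00 without cortical grey matter replicate 3 and 2.68 without Ttr. Microglial sums overlapped (1.61-fold lower, exact permutation p = 0.2), as did those of striatal projection neurons (1.13-fold higher, exact permutation p = 0.6). Among the cortical libraries, replicate 3 differed most: the chi-square of its counts, divided by the degrees of freedom, was 7.34 against replicate 1 and 6.25 against replicate 2, where replicates 1 and 2 gave 2.69.

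The comparison asked which of these mRNAs differ between the regions. Of the 7 genes tested, 1 was higher in diencephalon, P2ry1, none was lower, and 6 did not pass (quasi-likelihood test of edgeR, p under 0.05 after Benjamini-Hochberg adjustment over 10568 genes). Over all genes 29.6% passed, 14.9% as higher and 14.8% as lower, so that 1 of 7, or 14.3%, was no larger a share than in the whole data set. P2ry1 passed the count filter in 3 diencephalic libraries and in no cortical one. It thus entered the tested set only by way of the region where it was higher. At an unadjusted p under 0.05 there was 1 higher gene and 1 lower, Adora1. DESeq2 and limma with voom each called 1 member. The libraries of the regions were fully apart for 2 of the 7 genes, P2ry1 and Adora1, and for 42.6% of all genes tested. The median log2 difference of the 7 genes was 0.04, and that of all genes tested was 0.01.

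**Figure D1:**
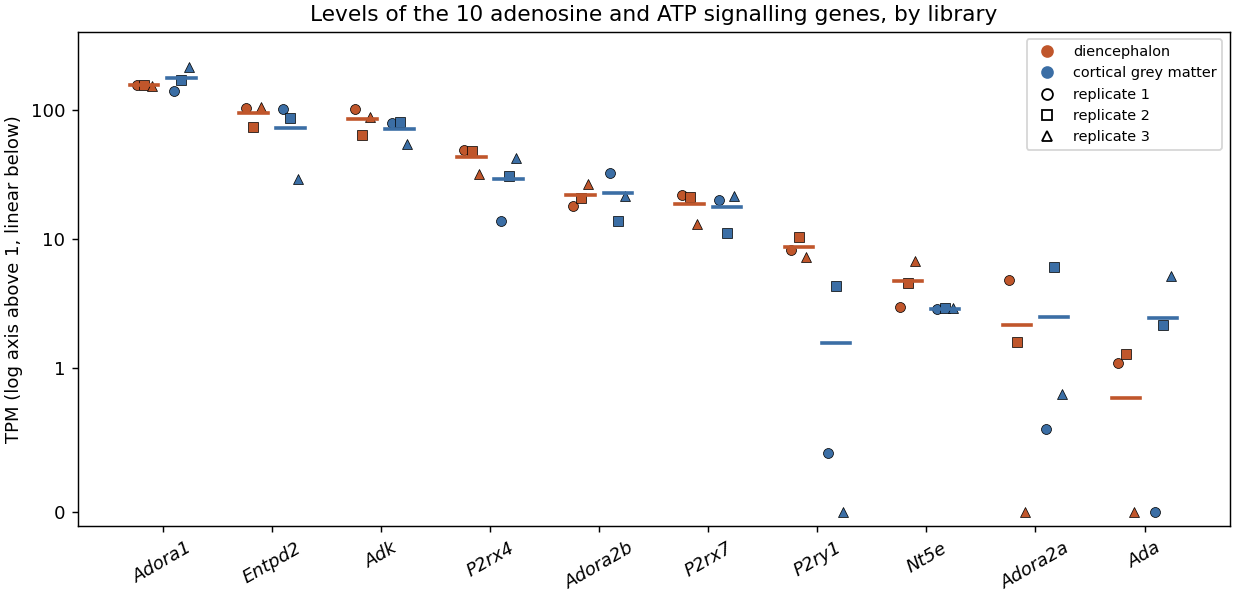
TPM of the 10 genes in each library, with diencephalon left of cortical grey matter for each gene; horizontal lines are means of 3 libraries and marker shapes are replicates. The vertical axis is logarithmic above 1 and linear below. Adora1 is highest in both regions, and P2ry1 is the only gene past the threshold, with 7.25 to 10.41 TPM in diencephalon and 0 to 4.31 TPM in cortical grey matter. P2ry1 passed the count filter in diencephalic libraries only.

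Levels per transcript length were compared between genes as TPM, which scales transcripts to a common total. In diencephalon Adora1 led with 155 ± 0.85 TPM (SD, n = 3), followed by Entpd2 with 94.4 ± 17.7 and Adk with 84.6 ± 19.6 TPM. P2rx4 came next with 43.0 ± 9.69 TPM, then Adora2b with 21.9 ± 4.30 and P2rx7 with 18.8 ± 4.95 TPM. P2ry1 had 8.65 ± 1.61 TPM, and Nt5e, Adora2a and Ada had means under 5 TPM. Between neighbours in this order, Entpd2 overlapped Adk, Adora2b overlapped P2rx7, and Nt5e, Adora2a and Ada overlapped one another in turn, while the other neighbours were apart in all libraries. In cortical grey matter the order was the same from Adora1, at 176 ± 37.9 TPM, down to P2rx7, at 17.6 ± 5.68 TPM, but P2ry1 came last with 1.57 ± 2.38 TPM. There the neighbours were apart in all libraries only below Adora1, below Adk and below P2rx7. Averaged over all libraries Adora1 lay at the 95.4th percentile of all genes in the files, Entpd2 at the 88.7th and Adk at the 87.7th.

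Among the adenosine receptors, Adora1, the inhibitory A1 receptor that lowers cyclic AMP, was the most abundant. Its CPM values were 208.7, 203.0 and 201.7 in the diencephalic libraries, against 212.9, 252.9 and 308.1 in the cortical ones. Every diencephalic value lay below every cortical one, as was the case for 20.8% of all genes tested, and the cortical libraries spread far more than the diencephalic ones. The log2 difference was -0.33 ± 0.14 (SE, 95% interval -0.61 to -0.05) and did not pass (edgeR adjusted p = 0.0705). It passed as lower in 3 of 16 alternatives: without cortical grey matter replicate 1 (-0.46, edgeR adjusted p = 0.0203), with the trend on gene length removed (-0.42, 0.0221) and with Y-linked signal, low in 1 library of each region, as a further term (-0.32, 0.0411), while the range over alternatives was 0.0203 to 0.509. On the deposited TPM scale the groups overlapped, with 155.43, 155.57 and 154.03 TPM in diencephalon against 140.64, 171.97 and 216.05 in cortical grey matter. General neuron marker sums were 1711, 1724 and 1676 CPM in diencephalon and 2454, 2607 and 3328 CPM in cortical grey matter. Astrocyte marker sums were lower in diencephalon too, and the part of either cell type in the Adora1 values was not tested.

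Adora2b, a receptor that raises cyclic AMP and responds to high adenosine, was at 8.42, 9.49 and 12.02 CPM in diencephalon and 17.02, 7.45 and 11.2 CPM in cortical grey matter. The groups overlapped, and the log2 difference of -0.28 ± 0.35 (95% interval -0.999 to 0.45) did not pass (edgeR adjusted p = 0.592). Its direction turned without cortical grey matter replicate 1, the highest library, to 0.10.

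Adora2a, the other receptor that raises cyclic AMP and a marker of the striatal neurons of the indirect pathway, had 7, 2 and 0 counts in the diencephalic libraries and 1, 9 and 1 in the cortical ones. It was below the count filter, and the ratio of summed counts was 0.795 (95% exact counting interval 0.291 to 2.11). Its direction depended on single libraries: the difference of mean log2(CPM + 1) was -0.21 with all libraries, but 0.44 without cortical grey matter replicate 2, which held 9 of the 11 cortical counts, and 0.32 without diencephalon replicate 3. The highest value of each region came from diencephalon replicate 1 and cortical grey matter replicate 2. Those were also the libraries with the highest sums of striatal projection neuron markers, 612 CPM against 404 and 425 in the other diencephalic libraries and 635 CPM against 378 and 304 in the other cortical ones. The part of those cells in the Adora2a counts was not tested. In these bulk libraries, fewer cells of a type and less RNA per cell cannot be told apart.

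P2ry1, a receptor for ADP that releases calcium from intracellular stores and is known to drive calcium signals in astrocytes, was the gene that rose in diencephalon. It had 17, 20 and 13 counts in the diencephalic libraries, or 7.95, 10.6 and 6.79 CPM, against 1, 9 and 0 counts in the cortical ones, or 0.436, 4.79 and 0 CPM. Every diencephalic library lay above every cortical one, as for 21.8% of all genes tested, and 9 of the 10 cortical counts came from replicate 2. The 0 in cortical grey matter replicate 3 allows up to 1.86 CPM. The fold was 4.71, with a log2 difference of 2.24 ± 0.64 (95% interval 0.89 to 3.58, edgeR adjusted p = 0.0123), and the ratio of summed counts was 4.86 (95% exact counting interval 2.44 to 10.7). The gene passed the count filter of 5.22 CPM in 3 diencephalic libraries and in no cortical one, so that it could have passed that filter only as higher. Without diencephalon replicate 2 the call was lost (log2 difference 2.04, edgeR adjusted p = 0.0607), as it was without cortical grey matter replicate 1 (1.69, 0.0750) and, by limma, on log2(TPM + 0.1) (3.83, 0.0604). Without cortical grey matter replicate 2, which leaves 1 cortical count, the log2 difference was 4.73, and over all alternatives the adjusted p ranged from 0.000329 to 0.0750. Subcortical neuron, choroid plexus, ependymal and oligodendrocyte marker sums were higher in the same diencephalic libraries, while other sums, those of astrocytes among them, were lower. The part of these cells in the P2ry1 difference was not tested.

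**Figure D2:**
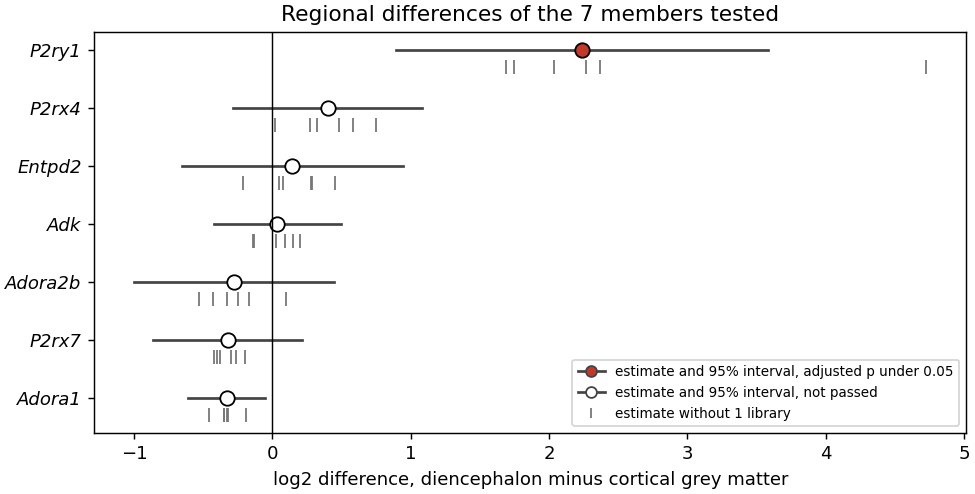
Log2 differences, diencephalon minus cortical grey matter, of the 7 genes tested; circles with lines are estimates with 95% intervals and short strokes are estimates with 1 library left out. The filled circle, P2ry1 at 2.24, is the only one with an adjusted p under 0.05, and its estimate of 4.73 was obtained without cortical grey matter replicate 2. P2ry1 was tested only by way of the diencephalic libraries, where it passed the count filter.

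P2rx4 and P2rx7 encode cation channels opened by ATP, P2rx7 by high concentrations, and both are known from microglia. P2rx4 had 24.8, 23.7 and 15.7 CPM in diencephalon against 7.85, 18.1 and 24.2 CPM in cortical grey matter. The groups overlapped, and the log2 difference was 0.40 ± 0.33 (95% interval -0.28 to 1.08, edgeR adjusted p = 0.389). Leaving out cortical grey matter replicate 1, which had the lowest value, moved the difference to 0.02, and leaving out replicate 3, with the highest, moved it to 0.75 (edgeR adjusted p = 0.0737). Microglial marker sums had the same order among the cortical libraries, with 519, 784 and 1227 CPM in replicates 1 to 3, but not among the diencephalic ones, with 453, 685 and 382.5 CPM, and the part of microglia was not tested. In RefSeq on build GRCm38.p6 P2rx4 overlaps Camkk2 on the opposite strand, a calcium-dependent kinase gene at 9.93 to 19.2 CPM in diencephalon against 51.9 to 60.25 CPM in cortical grey matter. The strand setting of the counting is not given in the sources used here, so reads from the shared stretch may have been split between the genes in an unknown way.

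P2rx7 had 17.3, 16.9 and 13.1 CPM in diencephalon and 20.5, 17.04 and 21.7 CPM in cortical grey matter. Diencephalon replicate 1 lay above cortical grey matter replicate 2, so the groups overlapped. The log2 difference was -0.32 ± 0.26 (95% interval -0.86 to 0.22, edgeR adjusted p = 0.379), and it turned to 0.11 on the TPM scale. The files give 5 transcripts for P2rx7 and weight its length by their estimated abundance: the length was 2986, 3101 and 3837 bases in diencephalon and 3474, 4912 and 3370.5 bases in cortical grey matter (exact two-sided permutation p = 0.4).

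Of the enzymes that degrade nucleotides outside the cell, Entpd2, which cuts ATP to ADP and is known from astrocytes and neural progenitors, was well expressed. It had 51.0, 35.3 and 50.2 CPM in diencephalon and 55.9, 49.0 and 16.15 CPM in cortical grey matter. Cortical grey matter replicate 3 was the lowest of all 6 libraries and lay below every diencephalic one, while the other cortical libraries lay within or above the diencephalic range. The log2 difference of 0.15 ± 0.36 (95% interval -0.65 to 0.94) did not pass (edgeR adjusted p = 0.798) and became -0.21 without that replicate.

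Entpd2 also varied within the regions, a pattern noticed after its values were seen. In each region it was lowest in the library with little signal from Y-linked genes, namely diencephalon replicate 2 with 8.44 CPM and cortical grey matter replicate 3 with 0 CPM of such genes, against 145 to 166 CPM in the other 4 libraries. Adk, the adenosine kinase gene, was lowest in the same libraries. These values are a description, with no test, and how many other genes share this order was not counted. The labels name both sexes for the study and none for a library, each region has 1 such library, and the cortical one is the library that differed most from its group, so that sex and library cannot be told apart.

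Nt5e, which encodes CD73 and forms adenosine from AMP, had 6, 8 and 12 counts in diencephalon and 7, 6 and 5 in cortical grey matter. It was below the count filter, and the ratio of summed counts was 1.40 (95% exact counting interval 0.741 to 2.72).

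Adk, whose enzyme clears adenosine by turning it into AMP, had 46.3, 28.5 and 38.7 CPM in diencephalon and 39.7, 43.1 and 27.3 CPM in cortical grey matter. The groups overlapped almost fully, with a log2 difference of 0.04 ± 0.22 (95% interval -0.42 to 0.49, edgeR adjusted p = 0.921). The direction turned to -0.14 without diencephalon replicate 1 and to -0.13 without cortical grey matter replicate 3. Ada, which encodes adenosine deaminase and converts adenosine to inosine, had 1, 1 and 0 counts in diencephalon and 0, 2 and 4 in cortical grey matter. With 2 summed counts in diencephalon and 6 in cortical grey matter the ratio was 0.324 (95% exact counting interval 0.0320 to 1.81), and a difference was not detectable at this depth.

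The abundance-weighted length in the files also differed between libraries for other genes with several transcripts, without separating the regions. For Adora1 it was 4989, 4966 and 4993 bases in diencephalon and 5033, 4733 and 4735 bases in cortical grey matter (exact two-sided permutation p = 0.4). For Adk it was 1803, 1825 and 1804 bases in diencephalon and 1791, 1825 and 1782 bases in cortical grey matter (exact two-sided permutation p = 0.6). For P2ry1 it was 3624, 3899 and 3624 bases in diencephalon and 3624 bases in cortical grey matter replicates 1 and 2. Replicate 3 had no count there, so its length of 3761.5 bases came from no read. Adora2a, Adora2b, P2rx4, Entpd2 and Nt5e had 1 transcript each in the files.

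Outside the 10 genes, 57 further genes of the pathway were listed by role. Of these 36 were tested, 5 rose, 5 fell and 26 did not pass, or 27.8% against 29.6% of all genes. The median log2 difference of the 36 was -0.09, against 0.01 over all genes tested. The remaining 21 were below the count filter, and 8 of them, including the P2X genes P2rx1 and P2rx2 and the vesicular nucleotide transporter gene Slc17a9, had no count in any library.

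**Figure D3:**
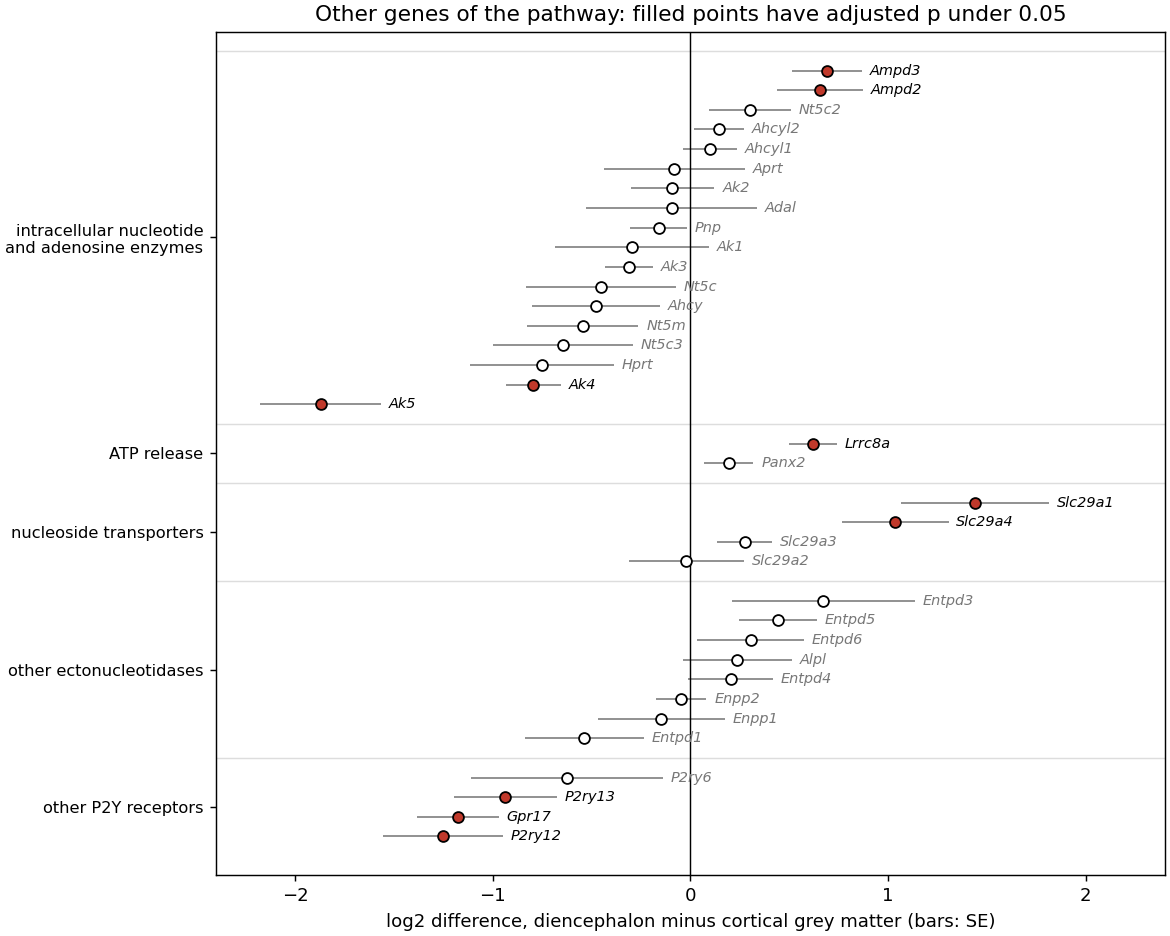
Log2 differences, diencephalon minus cortical grey matter, of the 36 further pathway genes tested, grouped by role; bars are standard errors and filled points have an adjusted p under 0.05. The filled P2Y receptor genes lie between -1.25 and -0.94, and the filled transporter genes at 1.04 and 1.44.

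Besides P2ry1, which rose, 4 further genes of the P2Y receptor group were tested, of which 3 fell and none rose; over all genes 14.8% fell. P2ry12, an ADP receptor characteristic of microglia, was at 23.4, 42.7 and 25.1 CPM in diencephalon and 44.9, 70.8 and 103.7 CPM in cortical grey matter. It was 2.38-fold lower (log2 difference -1.25 ± 0.30, edgeR adjusted p = 0.00766), and the call held without cortical grey matter replicate 3 (-0.93). P2ry13, another ADP receptor of microglia, was at 20.1, 25.3 and 13.6 CPM in diencephalon and 26.6, 39.4 and 48.45 CPM in cortical grey matter, or 1.91-fold lower (log2 difference -0.94 ± 0.26, edgeR adjusted p = 0.00851). Without diencephalon replicate 3 the P2ry13 call did not hold (-0.73, edgeR adjusted p = 0.0709), nor did it on TPM (0.0867 and 0.0933 by limma, with adjusted p from 0.000844 to 0.0933 across alternatives), while P2ry12 lost its call with log2(TPM + 0.1) alone (limma adjusted p = 0.0537, range 4.28e-09 to 0.0537). All 11 listed microglial markers had lower means in diencephalon, with sums of 453, 685 and 382.5 CPM against 519, 784 and 1227 CPM in cortical grey matter. Of the 10 of them tested, 1 passed, Cx3cr1, at -1.16 (edgeR adjusted p = 0.00113), where 14.8% of all genes passed as lower. The log2 difference of the microglial sum was -0.69, and it ran from -1.0 to -0.38 with 1 library left out. The part of microglia in the P2ry12 and P2ry13 differences was not tested.

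Gpr17, a receptor related to the P2Y family and found on differentiating oligodendrocyte progenitors, fell as well. Its values were 22.0, 20.0 and 21.4 CPM in diencephalon and 42.3, 57.0 and 44.7 CPM in cortical grey matter, which was 2.26-fold lower (log2 difference -1.18 ± 0.21, edgeR adjusted p = 0.000144). All 4 listed progenitor markers had lower means in diencephalon, with sums of 125, 130 and 115.5 CPM against 193, 198 and 167 CPM in cortical grey matter. The 8 oligodendrocyte markers, by contrast, all had higher means in diencephalon. The part of either cell type in the Gpr17 difference was not tested. P2ry6, which encodes a UDP receptor and was the remaining P2Y gene tested, had a log2 difference of -0.63 ± 0.49 and did not pass (edgeR adjusted p = 0.362).

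**Figure D4:**
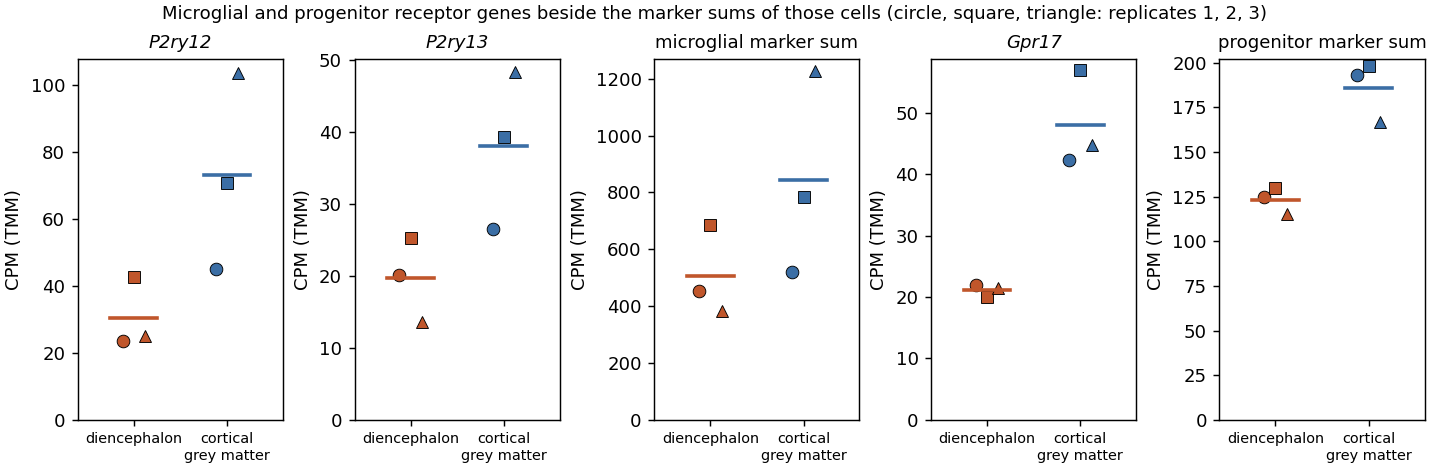
CPM of P2ry12, P2ry13 and Gpr17 beside the summed CPM of 11 microglial and 4 oligodendrocyte progenitor markers, with diencephalon left of cortical grey matter; each vertical axis starts at 0, horizontal lines are means and marker shapes are replicates. For P2ry12 and P2ry13, replicate 3 is the highest cortical library and replicate 2 the highest diencephalic one, and both hold for the microglial sum.

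The nucleoside transporter genes held 2 that rose and none that fell among 4 tested, where 14.9% of all genes rose and 29.6% passed in either direction. Slc29a1, which encodes the equilibrative transporter ENT1 that carries adenosine across the cell membrane, was at 15.4, 10.02 and 13.1 CPM in diencephalon and 3.49, 5.86 and 4.97 CPM in cortical grey matter. It was 2.72-fold higher (log2 difference 1.44 ± 0.38, edgeR adjusted p = 0.00549). Slc29a4, a transporter of monoamines that also carries adenosine, was at 23.4, 26.4 and 32.4 CPM in diencephalon and 11.8, 10.1 and 18.6 CPM in cortical grey matter, or 2.05-fold higher (log2 difference 1.04 ± 0.27, edgeR adjusted p = 0.00559). For either gene the regions were fully apart, as for 21.8% of all genes tested in this direction, and both passed in every alternative in which they were tested. Slc29a1 passed the count filter of 5.22 CPM in 3 diencephalic libraries and 1 cortical one, so it was tested by way of the region where it was higher. At a minimum count of 30 it was not tested. Slc29a2 and Slc29a3 had log2 differences of -0.02 ± 0.29 and 0.28 ± 0.14 and did not pass. Slc29a3 did pass as higher on log2(TPM + 1) (0.48, limma adjusted p = 0.0481), where the median over all genes was 0.22. It also passed in the absence of cortical grey matter replicate 3 (0.41, edgeR adjusted p = 0.0179). Subcortical neuron, choroid plexus, ependymal and oligodendrocyte sums were higher in the same diencephalic libraries, and their part in the transporter differences was not tested.

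Of 2 tested genes of ATP release 1 rose in diencephalon, while 14.9% of all genes rose. That gene was Lrrc8a, the obligatory subunit of volume-regulated anion channels. Its values were 558, 574 and 593 CPM in diencephalon and 350, 403 and 369 CPM in cortical grey matter (log2 difference 0.62 ± 0.12, edgeR adjusted p = 0.000423). Panx2, which encodes a pannexin, had a log2 difference of 0.19 ± 0.12 (edgeR adjusted p = 0.257). It passed on TPM alone (0.40 with either pseudocount, limma adjusted p = 0.0448 and 0.0452), where the median over all genes was itself 0.22 and 0.23. Panx1 was below the count filter with 28 counts in diencephalon and 14 in cortical grey matter.

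None of 8 tested genes listed as ectonucleotidases passed in the edgeR test, where 29.6% of all genes passed. None passed with DESeq2 or limma with voom either. The list was made by role, and whether each enzyme acts outside the cell was not examined. In the edgeR test 1 of the 8 had an unadjusted p under 0.05, Entpd5, named after its value was seen. In edgeR fits with 1 library left out, Entpd5 passed as higher in the absence of diencephalon replicate 1 (0.59, adjusted p = 0.0409) or cortical grey matter replicate 3 (0.60, 0.0196), and Entpd1 passed as lower without cortical grey matter replicate 1 (-0.87, 0.0246). The log2 differences of the 8 genes ran from -0.54 for Entpd1, known from microglia and vessels, to 0.67 for Entpd3, which is known from neurons. Enpp2, which encodes autotaxin, was the most abundant of them by CPM, with 175 ± 5.87 CPM in diencephalon and 181 ± 19.9 CPM in cortical grey matter (SD, n = 3 each).

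Of 18 tested enzymes that interconvert nucleotides and adenosine inside the cell, 2 rose, 2 fell and 14 did not pass, so that 22.2% passed against 29.6% of all genes. Ampd3 and Ampd2, both AMP deaminases that turn AMP into IMP, were the ones that rose. Ampd3 was at 62.2, 68.0 and 79.4 CPM in diencephalon against 47.6, 45.8 and 35.4 CPM in cortical grey matter (log2 difference 0.69 ± 0.18, edgeR adjusted p = 0.00509). Ampd2 was at 36.0, 30.6 and 39.2 CPM in diencephalon and 20.1, 26.6 and 20.5 CPM in cortical grey matter (log2 difference 0.66 ± 0.22, edgeR adjusted p = 0.0263). The Ampd2 call depended on single libraries: the edgeR adjusted p was 0.0696 and 0.114 when diencephalon replicate 1 or 3 was left out, and 0.108 and 0.0530 when cortical replicate 1 or 3 was left out. It also missed the threshold with DESeq2 (0.0678) and with the length trend removed (0.0528), in a range of 0.0168 to 0.114 over alternatives.

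The adenylate kinase genes Ak4 and Ak5, whose enzymes pass phosphate between adenine or guanine nucleotides, were those that fell. Ak4, found in mitochondria, was at 165, 117 and 133 CPM in diencephalon and 252, 251 and 217 CPM in cortical grey matter, or 1.73-fold lower (log2 difference -0.79 ± 0.14, edgeR adjusted p = 0.000138). Ak5, known from brain, was at 4.21, 8.44 and 7.84 CPM in diencephalon and 23.6, 23.4 and 27.95 CPM in cortical grey matter, or 3.66-fold lower (log2 difference -1.87 ± 0.31, edgeR adjusted p = 6.25e-05). Neither gene's libraries overlapped between regions, as was the case for 20.8% of all genes tested in this direction. Summed astrocyte markers were 1.78-fold and cortical excitatory neuron markers 17.1-fold lower in the same diencephalic libraries, and their part in these differences was not tested. Of the 10 astrocyte markers, 6 passed as lower and 4 did not pass, where 14.8% of all genes passed as lower.

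For the 3 members with the smallest adjusted p, the genes with the most similar CPM pattern over the 6 libraries were listed as a description (Pearson correlation of log2(CPM + 1)). P2ry1 was closest to Araf (r = 0.991), Lnx1 (0.989) and Tjap1 (0.988), whose log2 differences of 0.49, 0.81 and 0.54 were smaller than its own. Adora1 was closest to Hspb6 (r = 0.997), Gabrb2 (0.990) and Zdhhc24 (0.988). P2rx7 was closest to Rcan1 (r = 0.988), Crcp (0.984) and Cers6 (0.983). These values share the same 6 libraries and were picked as the highest among 10568 genes.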

How the data were processed

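Per the labels' protocols, mRNA on tagged ribosomes was purified, amplified with the Ovation system and sequenced on an Ion Proton instrument. RSEM and build mm9 are named in what the authors deposited, per the submitters' processing notes; the RSEM version, the aligner and whether strand was used when counting are not stated there. The deposited expected counts are RSEM estimates per gene, of which 3.64% to 3.99% in a library were not whole. The deposited TPM values are scaled by effective length and library total. No coordinates are given; RefSeq on GRCm38.p6 served only to name overlapping genes.

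Counts were rounded, filtered with filterByExpr (minimum count 10), normalised by TMM and tested by quasi-likelihood F tests (edgeR 4.0.16 in R 4.3.3; region as the only term, robust estimation, Benjamini-Hochberg adjustment over all 10568 genes tested). SEs come from the F statistic. CPM values are counts over TMM library sizes. Intervals on counts, and the limits given for a count of 0, include no error beyond counting, since no molecular identifiers are stated. The 16 alternatives left out each library in turn, blocked on replicate number, used DESeq2 1.42.0 or limma 3.58.1 (voom, log2(TPM + 1), log2(TPM + 0.1), the TPM fits on genes averaging at least 1 TPM), RLE factors, no filter or a minimum of 30, removed a spline trend on gene length (5 degrees of freedom), or added Y-linked signal under 50 CPM as a term. The scripts were tested on simulated counts.

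The members, lists and tests were chosen with earlier results of these data known. Named genes are the 10 members, each further pathway gene past the threshold, and genes needed to state counts; for the 3 members with the smallest adjusted p, the 3 most correlated genes are named.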

Additional observations from a re-analysis of the deposited data

How the results depend on the processing

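Counts of genes past the threshold stayed within 1.5 times over the 16 alternatives for all genes (2331 to 3528 against 3133) and for the further pathway genes (8 to 12 against 10). With log2(TPM + 1) and log2(TPM + 0.1) the median over all genes was 0.22 and 0.23, and 68.9% and 68.7% of calls were higher, against 50.2% on counts. The number of members called was 0 at a minimum count of 30, which left P2ry1 untested, and with log2(TPM + 0.1), 2 with the length trend removed and with the Y-linked term, and 0 to 1 with a library left out. P2ry1 lost its call with log2(TPM + 0.1) (3.83, limma adjusted p = 0.0604), without diencephalon replicate 2 (2.04) and without cortical grey matter replicate 1 (1.69). It ranged from 1.69 to 4.73 without a library. Adora1 passed as lower with the length trend removed (-0.42), with the Y-linked term (-0.32) and without cortical grey matter replicate 1 (-0.46). In that last fit it was the only member called. It ranged from -0.46 to -0.19 without a library. Directions turned with log2(TPM + 1) and log2(TPM + 0.1) for Adora2b (0.01 and 0.02) and P2rx7 (0.11 in both), which is below the median of all genes on that scale. Without a library Adora2b ranged from -0.53 to 0.10, Entpd2 from -0.21 to 0.45 and Adk from -0.14 to 0.20. Ada moved to -1.53 in the fit without a count filter, against -0.56 as a difference of mean log2(CPM + 1). The cause of these shifts was not tested. P2rx4 and Nt5e kept their direction in each alternative that gave a value, while Adora2a, without a test, ranged from -0.73 to 0.44 without a library. Same-numbered libraries of the regions did not deviate together (r = 0.06, -0.10 and 0.00 for numbers 1 to 3), so the numbers are not taken as pairs. Libraries of different numbers gave r from -0.17 (diencephalon replicate 1 with cortical grey matter replicate 3) to 0.18 (diencephalon replicate 2 with cortical grey matter replicate 3). The pair at 0.18 was made up of the libraries with little Y-linked signal, at 8.44 and 0 CPM. Diencephalon replicate 1 with cortical grey matter replicate 2 gave 0.15. Whether pools of the regions shared animals under other numbers was not tested. With a replicate block 3037 genes and 1 member passed, P2ry1 at 2.4. With 2 to 26 summed counts per region, Ada, Adora2a and Nt5e were limited by depth.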
